A study of Mus musculus with 8 samples.

Results

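The 9 genes described here encode membrane transporters that carry fuels and B vitamins: the glucose transporters Slc2a1 and Slc2a3, the monocarboxylate transporters Slc16a1 and Slc16a4, the thiamine transporters Slc19a3 and Slc19a2, the biotin and pantothenate transporter Slc5a6, the riboflavin transporter Slc52a3 and the fatty acid transport protein Slc27a1. They were chosen by name, and every probe whose RefSeq accession mapped to 1 of them was followed. This gave 10 probes among the 39429 on the array and 9 of the 21926 genes tested, because Slc19a3 alone had 2 probes. All 10 probes were well above background in every channel at every age, and none was saturated. RNA came from microvessels of mouse forebrain, isolated by homogenisation, sedimentation on a density step and filtration to particles below 70 µm, from pups aged 5 days (P5) or 10 days (P10) and from adults. The labels name no strain, genotype, sex or treatment, and give the adult age no number. RNA of a pair of ages was labelled with Cy5 and Cy3 and hybridised together on each of 8 arrays. Each of the 2 replicates occupied 1 slide of 4 arrays, which compared P5 with adult, P10 with adult, adult with P10 in exchanged dyes, and P5 with P10.

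Brain capillaries are sealed by tight junctions, so that glucose, lactate, ketone bodies and water-soluble vitamins cross their endothelium through carriers. Slc2a1 (GLUT1) is the main glucose carrier of the blood-brain barrier, whereas Slc2a3 (GLUT3) is best known from neurons. Slc16a1 (MCT1) moves lactate and ketone bodies, which the suckling brain uses beside glucose, and requires the chaperone basigin to reach the membrane. Slc19a2 and Slc19a3 carry thiamine, the precursor of the cofactor of pyruvate dehydrogenase. Slc52a3 carries riboflavin, Slc5a6 carries biotin and pantothenate with sodium, and Slc27a1 (FATP1) takes up long-chain fatty acids.

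Every channel had between 65.2% and 73.3% of 43020 spots well above background, and the log2 ratios of the exchanged-dye arrays ran opposite to those of the forward arrays (correlation across probes -0.882 and -0.915). Marker lists of the cell types such a preparation can hold differed between ages. Their counts stand beside 23% of all genes lower and 30.1% higher in P5 against adult. Of 20 endothelial identity genes, all tested, 18 were lower at P5 than in adult (limma adjusted p below 0.05) and the summed single-channel level of the list was 117062 to 128534 at P5, 262040 to 269691 at P10 and 469996 to 498208 in adult, in normalized intensity units. All 10 erythroid genes tested were higher at P5 (median log2 ratio 4.48), as were 6 of 8 immature neuron genes (1.99) and 6 of 8 choroid plexus and ependyma genes (1.18). Of the mural cell lists, 8 of 9 pericyte genes (-1.35) and 5 of 6 smooth muscle genes (-2.54) were lower at P5. Of 8 oligodendrocyte genes 6 were lower (-2.12), of 9 mature neuron genes 4 were lower (-0.08), of 9 astrocyte genes 3 were lower and 2 higher (-0.32), of 7 microglia genes 2 were higher (0.59), and of 6 fibroblast genes 4 were higher and 2 lower (1.1). The microglia median was -0.04 in replicate 1 and 1.05 in replicate 2. In RNA of a whole preparation, fewer cells of a type and less RNA per cell cannot be told apart. P5 RNA carried Cy5 on every array, so the dye term for it came from the P10 and adult arrays. The summed levels carry no such term, so for P5 they do not separate age from dye. The labels do not say whether the replicates were separate animals or pools, so the p-values reflect spread between samples that may be no more than technical.

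In P5 against adult, 4 of the 9 transporters were lower (Slc2a1, Slc16a4, Slc19a3 and Slc52a3), 1 was higher (Slc27a1) and 4 were not called. Among all genes 23% were lower and 30.1% were higher in this comparison. The median log2 ratio of the 9 was -0.05, beside 0.09 over all genes. In P10 against adult the same 4 genes were lower, where 9.1% of all genes were lower, and Slc5a6 was higher, where 8.42% were higher. The median of the 9 was -0.20, beside 0.01. In P5 against P10, 5 were lower (Slc2a1, Slc16a4, Slc19a3, Slc52a3 and Slc5a6) and 1 was higher (Slc27a1), where 18.2% of all genes were lower and 23% higher, with medians of -0.62 and 0.06. Relative to the endothelial list, described further down, Slc5a6 was called in the other direction (0.61, limma adjusted p = 0.00323). Slc16a4 (0.18, adjusted p = 0.364) and Slc19a3 (0.13, adjusted p = 0.493) changed sign there but were not called. Slc2a1 had the lowest P5 to adult ratio of the 9 and ranked 33 from the lowest among 21926 genes. Slc19a3 followed at 69, Slc16a4 at 75 and Slc52a3 at 106. This order is that of the reported fit, with an offset of 50 after loess. It turned under the other background treatments given with Slc19a3, and it also depended on the fit, as given there. With the background model fitted on all spots with backgrounds as recorded, including a few faulty ones, limma called none of the 9 in P10 against adult or in P5 against P10. At an unadjusted p under 0.05 it gave 4 lower and 1 higher in the former, where 11% of all genes were lower and 9.82% higher, and 4 lower and 2 higher in the latter, where 14.5% and 17.7% were. Under that model the ratios of Slc2a1 were -1.43 (limma adjusted p = 0.0526) and -1.74 (adjusted p = 0.064), and those of Slc19a3 were -1.57 (adjusted p = 0.0724) and -0.60 (adjusted p = 0.184).

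**Figure D1:**
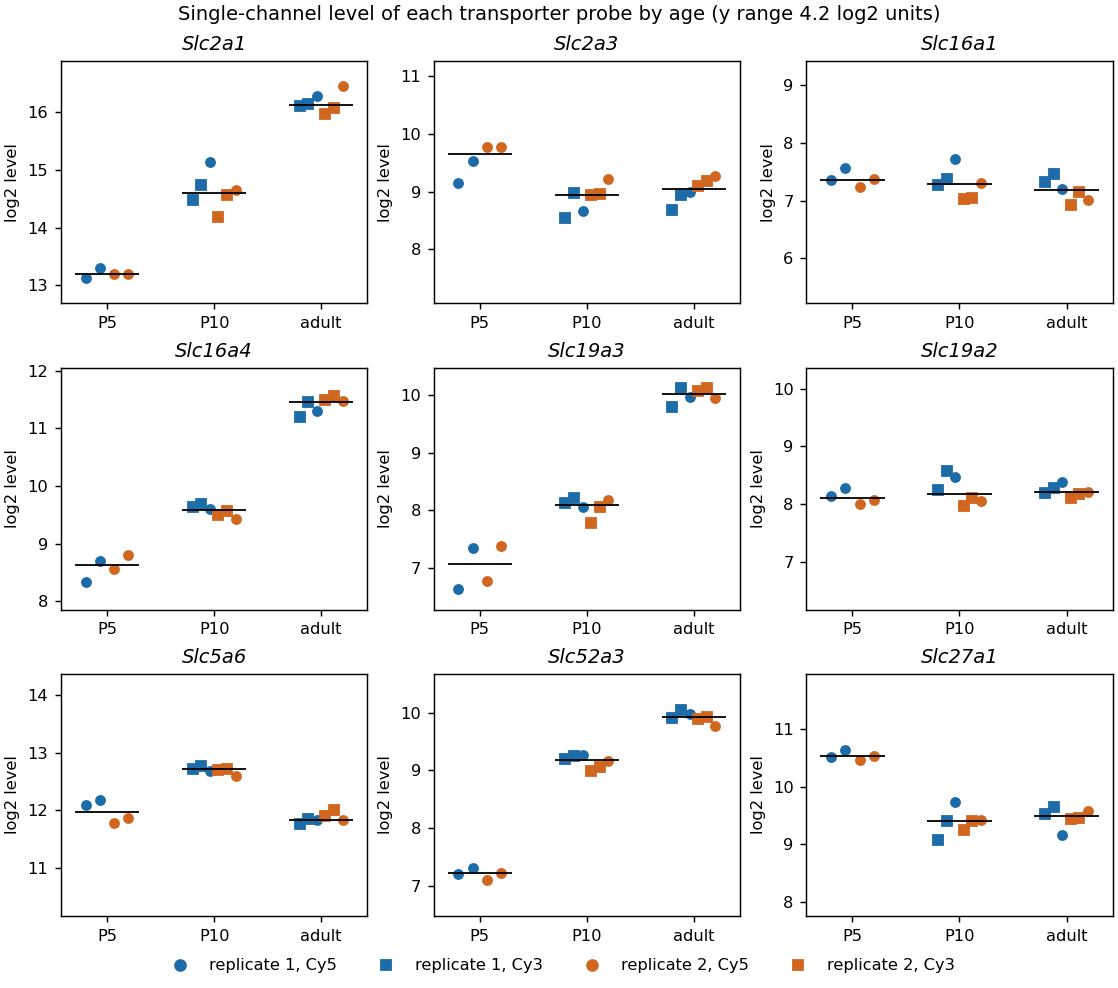
Single-channel log2 level of the representing probe of each of the 9 transporters (y axis, normalized intensity) at P5, P10 and adult (x axis). Each point is 1 channel of 1 array (4 at P5, 6 at P10, 6 in adult), coloured by replicate and shaped by dye, and the line is the median. Every panel spans the same number of log2 units. The panels of Slc2a1, Slc16a4, Slc19a3 and Slc52a3 climb with age without overlap between the channels of different ages. How many of all genes do so was not counted. Of all genes, 23% were lower and 30.1% higher in P5 against adult.

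Promoter sequences were compared for the members that were lower at both young ages and have an entry in the RefSeq promoter table (build GRCm38.p6), together with Slc19a2, whose ratio stayed near 0 and which is the closest relative of Slc19a3. The table held 7 of the 9 genes; Slc2a3 and Slc52a3 had no entry. Each line gives the 250 bases before the annotated start of transcription, 5′ to 3′ on the gene's strand, and capitals mark matches to the motifs searched. The windows are chr4:119108495-119108744 (+) for Slc2a1, chr3:107290980-107291229 (+) for Slc16a4, chr1:83038449-83038698 (-) for Slc19a3 and chr1:164248796-164249045 (+) for Slc19a2.
Slc2a1: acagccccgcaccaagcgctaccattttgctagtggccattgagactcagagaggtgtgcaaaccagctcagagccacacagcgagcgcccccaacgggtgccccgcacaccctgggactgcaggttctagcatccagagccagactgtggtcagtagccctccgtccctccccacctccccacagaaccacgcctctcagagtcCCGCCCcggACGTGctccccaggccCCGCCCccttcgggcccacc
Slc16a4: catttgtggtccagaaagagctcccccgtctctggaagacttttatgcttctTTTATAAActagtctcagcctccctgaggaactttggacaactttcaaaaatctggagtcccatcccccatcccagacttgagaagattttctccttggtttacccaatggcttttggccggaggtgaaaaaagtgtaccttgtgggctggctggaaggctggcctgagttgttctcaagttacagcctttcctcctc
Slc19a3: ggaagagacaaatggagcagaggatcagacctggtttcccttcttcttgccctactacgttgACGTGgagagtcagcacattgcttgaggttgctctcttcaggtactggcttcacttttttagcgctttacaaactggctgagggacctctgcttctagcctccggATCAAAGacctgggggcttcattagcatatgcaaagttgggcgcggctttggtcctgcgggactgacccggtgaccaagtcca
Slc19a2: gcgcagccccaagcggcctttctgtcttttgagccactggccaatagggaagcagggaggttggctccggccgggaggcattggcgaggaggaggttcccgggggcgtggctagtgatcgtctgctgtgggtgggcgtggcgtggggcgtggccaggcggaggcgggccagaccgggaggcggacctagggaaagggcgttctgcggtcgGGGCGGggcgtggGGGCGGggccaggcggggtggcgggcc
The motifs were GGGCGG (the GC box bound by Sp1), ACGTG (the core of the hypoxia response element), CGGAAG (an ETS core), ATCAAAG (a TCF/LEF site) and TATAAA (the TATA box), each searched on both strands. Of 32851 windows of 300 bases in the table, 35.7% held GGGCGG, 19.6% ACGTG, 16.9% CGGAAG, 3.73% ATCAAAG and 13.6% TATAAA. Before the start of Slc2a1, GGGCGG began at 45 and 20 bases and ACGTG at 36 bases. Slc19a3 held ACGTG at 188 and ATCAAAG at 83 bases, Slc16a4 held a pair of overlapping TATAAA matches at 198 and 196 bases, and Slc19a2 held GGGCGG at 40 and 27 bases. These positions lie in the 250 bases printed, whereas the shares count windows of 300 bases. Over 300 bases the same motifs also occurred in members that were not lower. Slc16a1 held 3 ACGTG, and start 3 of Slc27a1 held 2 ACGTG and 1 ATCAAAG. The 300-base window of Slc2a1 held 1 TATAAA as well. None of the windows of the 7 genes held CGGAAG. These matches are letters in a window and were not tested as sites.

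The 4 promoters also differed in base composition. The 300-base window of Slc16a4 had 3 CpG dinucleotides and a GC content of 49.3%, and that of Slc19a3 had 11 and 52%. Those of Slc2a1 (18 and 65.3%) and Slc19a2 (28 and 72.0%) were richer, and Slc16a1, whose level did not pass the test in any comparison, had 42 and 73.7%. Over all windows the medians were 7 and 52.7%. The 3 genes shown that were lower at P5 thus included CpG-poor and CpG-rich starts.

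Slc2a1, the glucose carrier of brain endothelium, was 10.0-fold lower at P5 than in adult and 2.94-fold lower at P10. On the P5 over adult arrays its log2 ratio was -2.81 in replicate 1 and -2.76 in replicate 2. On the P10 over adult arrays it was -1.01 and -1.42, and on the exchanged-dye arrays, read as adult over P10, it was 1.79 and 2.27. P5 over P10 gave -1.61 and -1.37. All 8 arrays thus ordered the ages in the same way, with P5 lowest and adult highest. The forward P10 arrays gave smaller differences than the exchanged ones in both replicates, and the fit carries a dye term for this. Its single-channel levels did not overlap between ages, at 13.12 to 13.30 for P5, 14.18 to 15.13 for P10 and 15.96 to 16.45 for adult. These channels are repeat readings of 2 replicates per age, with P5 in Cy5 alone, and carry no dye term. How many of all genes lack such overlap was not counted, here or for the genes below. The fitted log2 ratios were -3.32 ± 0.13 for P5 against adult (SE, n = 2, limma adjusted p = 0.000525), -1.56 ± 0.13 for P10 against adult (adjusted p = 0.00457) and -1.77 ± 0.13 for P5 against P10 (adjusted p = 0.00422). By P10 Slc2a1 had covered 53.1% of the log2 distance from P5 to adult, 58.5% in replicate 1 and 47.9% in replicate 2. P5 RNA was never in the exchanged dye, so the fitted 10.0-fold includes a dye term that no exchanged P5 array measured. This fold exceeds what either P5 over adult array gave. With only the arrays that hold both ages the P5 against adult ratio was -2.78 and the P10 against adult ratio -1.62. Single-channel values without a replicate block gave -2.97, and leaving out the 2 arrays with faulty backgrounds gave -3.09. With median centring in place of loess the P5 against adult ratio was -4.01, the P10 against adult ratio -1.33 and the P5 against P10 ratio -2.67. The percentage covered by P10, here and for the other carriers, is that of the reported fit alone and moves with these ratios.

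Slc2a3, the neuronal glucose carrier, did not pass the test in any comparison. P5 over adult was 0.21 and 0.68 on the arrays of replicates 1 and 2, P10 over adult -0.03 and 0.03, adult over P10 0.45 and 0.31, and P5 over P10 0.56 and 0.84. Both P5 over P10 arrays lay above 0, whereas the forward and exchanged P10 arrays did not mirror each other. Single-channel levels overlapped between all ages, at 9.15 to 9.78 for P5, 8.55 to 9.22 for P10 and 8.69 to 9.26 for adult. The fitted P5 against adult ratio was 0.28 ± 0.14 (SE, n = 2, limma adjusted p = 0.156, 95% confidence interval -0.09 to 0.66), made of 0.05 in replicate 1 and 0.52 in replicate 2. P5 against P10 was 0.48 ± 0.14, next to the threshold at an adjusted p of 0.0506, and it passed at an adjusted p of 0.0488 when only probes above background at all 3 ages were tested. The difference between Slc2a1 and Slc2a3 in P5 against adult was -3.33 in replicate 1 and -3.89 in replicate 2, and this difference between genes was not tested.

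Slc16a4, a member of the monocarboxylate transporter family whose substrate is less well settled than that of Slc16a1, was 7.03-fold lower at P5 than in adult. Its log2 ratio on the P5 over adult arrays was -2.76 in both replicates. P10 over adult was -1.59 and -2.07, the exchanged arrays gave 1.66 and 1.91 as adult over P10, and P5 over P10 was -1.35 and -0.94. The order of ages was the same on all 8 arrays, and single-channel levels did not overlap, at 8.34 to 8.81 for P5, 9.42 to 9.69 for P10 and 11.20 to 11.57 for adult. The fit gave -2.81 ± 0.15 for P5 against adult (SE, n = 2, limma adjusted p = 0.000655), -1.77 ± 0.15 for P10 against adult (adjusted p = 0.00459) and -1.05 ± 0.15 for P5 against P10 (adjusted p = 0.0106). Slc16a4 had covered 37.1% of the distance to adult by P10, with 45.1% and 28.8% in the replicates.

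Slc16a1, the lactate and ketone body carrier, gave ratios close to 0 from a dim probe. Its signal was 82 to 347 intensity units, 3.11-fold to 6.87-fold above local background. P5 over adult was 0.04 and 0.22, P10 over adult 0.26 and 0.39, adult over P10 -0.07 and -0.03, and P5 over P10 0.18 on both arrays. Its levels overlapped throughout, at 7.23 to 7.56 for P5, 7.04 to 7.72 for P10 and 6.92 to 7.46 for adult. The fitted P5 against adult ratio was 0.09 ± 0.09 (SE, n = 2, limma adjusted p = 0.467, 95% confidence interval -0.16 to 0.33). P10 against adult was 0.14 ± 0.09 (adjusted p = 0.401), and P5 against P10 was -0.05 ± 0.09 (adjusted p = 0.68). The offset of 50 added to every signal before the logarithm draws the ratios of so dim a probe towards 0, and with an offset of 1 the P5 against adult ratio was 0.12. The difference between Slc16a4 and Slc16a1 in P5 against adult was -2.95 and -2.85 in the replicates.

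Slc19a3, the thiamine transporter that brain vessels express, was lower at P5 at both of its probes. At the brighter probe P5 over adult was -2.77 and -2.69, P10 over adult -1.73 and -1.94, adult over P10 1.75 and 1.89, and P5 over P10 -1.49 and -1.01. Ages kept the same order on all 8 arrays. Single-channel levels were 6.63 to 7.39 at P5, 7.78 to 8.22 at P10 and 9.79 to 10.13 in adult, with no overlap. The fit gave -2.86 ± 0.13 for P5 against adult (SE, n = 2, limma adjusted p = 0.000544), -1.76 ± 0.13 for P10 against adult (adjusted p = 0.0037) and -1.10 ± 0.13 for P5 against P10 (adjusted p = 0.00763). The other probe gave -2.28 and -2.51 in the replicates for P5 against adult and -1.74 and -1.74 for P10 against adult. By P10 the brighter probe had covered 38.5% of the distance to adult (44.4% and 32.3%). The step from P5 to P10 was smaller at the other probe, where P5 against P10 was -0.66. The P5 against adult ratio that enters the percentage moved with the offset, as given below.

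The P5 signal of Slc19a3 lay only 2.04-fold to 4.19-fold above local background, so the size of its change depended on the offset. With an offset of 1 in place of 50 the P5 against adult ratio of Slc19a3 was -3.52 and that of Slc2a1 was -3.40, so the order of these genes by size of change turned. The scanner software's own log ratios gave -3.96 for Slc19a3, -3.54 for Slc52a3, -3.35 for Slc2a1 and -3.22 for Slc16a4. With the background treatment unchanged, single-channel values without a replicate block gave -2.970 for Slc19a3 and -2.965 for Slc2a1. The arrays that hold both ages alone gave -2.78 for Slc2a1, -2.76 for Slc16a4 and -2.73 for Slc19a3. The order of the 4 carriers by size of change thus depended on how the background was treated and on the fit. The offset was varied after the data had been seen.

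Slc19a2, the other thiamine transporter, stayed near 0 at all ages. P5 over adult was -0.01 and -0.09, P10 over adult 0.28 and -0.05, adult over P10 -0.18 and 0.12, and P5 over P10 -0.10 and 0.04. The replicates had opposite signs on 3 of the 4 kinds of array. Levels overlapped between ages, at 8.01 to 8.28 for P5, 7.97 to 8.57 for P10 and 8.11 to 8.39 for adult. P5 against adult was -0.05 ± 0.12 (SE, n = 2, limma adjusted p = 0.71, 95% confidence interval -0.35 to 0.24), which bounds a decrease at P5 well short of that of Slc19a3. The difference between Slc19a3 and Slc19a2 was -2.96 and -2.65 for P5 against adult and -1.85 and -1.78 for P10 against adult.

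**Figure D2:**
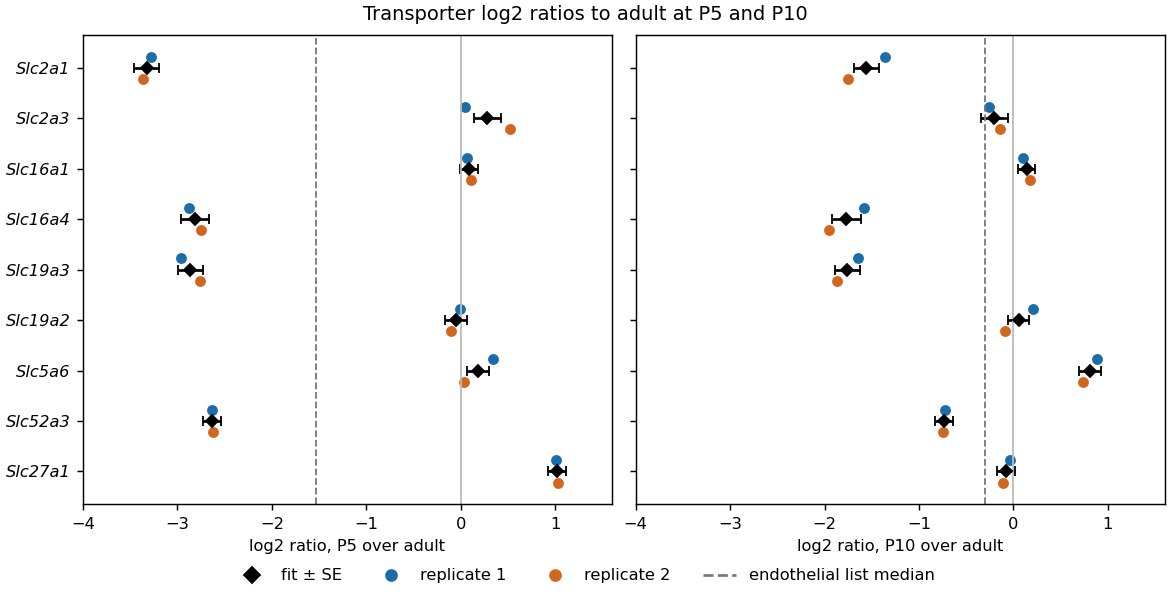
Fitted log2 ratio to adult (x axis) at P5 (left) and P10 (right) for the 9 transporters (y axis). Diamonds with bars are the fit ± SE, points are the values of replicates 1 and 2, and the dashed line is the median of the 20 endothelial identity genes, averaged over replicates. Slc2a1, Slc16a4, Slc19a3 and Slc52a3 lie left of the dashed line at both ages.

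Slc52a3, the riboflavin transporter, was 6.19-fold lower at P5 than in adult and 1.67-fold lower at P10. P5 over adult was -2.60 and -2.67 on the arrays, P10 over adult -0.78 and -0.77, adult over P10 0.73 and 0.71, and P5 over P10 -2.0 and -1.89. The replicates lay close together on all 4 kinds of array, and P10 stood nearer to adult than to P5. Levels were 7.10 to 7.30 at P5, 8.99 to 9.26 at P10 and 9.78 to 10.05 in adult, with no overlap. The fit gave -2.63 ± 0.09 for P5 against adult (SE, n = 2, limma adjusted p = 0.000525), -0.74 ± 0.09 for P10 against adult (adjusted p = 0.0111) and -1.89 ± 0.09 for P5 against P10 (adjusted p = 0.00398). Its P5 signal was 2.78-fold to 3.50-fold above background, and with an offset of 1 the P5 against adult ratio was -3.18. The P10 against adult call was lost when arrays were centred on their median in place of loess (adjusted p = 0.0947), with the ratio at -0.74.

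Slc52a3 had covered 72.0% of its log2 distance to adult by P10 (72.4% and 71.5% in the replicates). A contrast of P10 with the midpoint of P5 and adult, added after the data had been seen, put Slc52a3 0.58 ± 0.08 above its midpoint (SE, n = 2, limma adjusted p = 0.0225). In that contrast 6.16% of all genes were higher and 5.54% lower. Slc2a1 (0.10, adjusted p = 0.543), Slc16a4 (-0.36, adjusted p = 0.125) and Slc19a3 (-0.33, adjusted p = 0.12) did not pass it. The contrast was run on the reported fit alone.

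Slc5a6, the sodium-dependent carrier of biotin and pantothenate, was highest at P10. P10 over adult was 0.83 and 0.58 on the arrays, adult over P10 -0.90 and -0.88, P5 over P10 -0.60 and -0.85, and P5 over adult 0.34 and -0.11. The P10 levels of 12.59 to 12.78 did not overlap those of P5 (11.79 to 12.18) or adult (11.75 to 12.01), whereas P5 and adult overlapped. The fitted P10 against adult ratio was 0.81 ± 0.12 (SE, n = 2, limma adjusted p = 0.0149), 0.88 and 0.73 in the replicates. P5 against P10 was -0.62 ± 0.12 (adjusted p = 0.0172), and P5 against adult was 0.19 ± 0.12 (adjusted p = 0.227). P10 lay 0.71 ± 0.10 above the midpoint of the other ages (adjusted p = 0.0227). With median centring the P10 against adult ratio was 0.86 and missed the threshold (adjusted p = 0.0759), and the P5 against P10 ratio was -1.34. The fibroblast list was also highest at P10, with 4 of 6 genes higher than in adult and a summed level of 58120.7 to 66347.5, beside 29942.7 to 41514 at P5 and 26146.8 to 26790.1 in adult. Its part in the ratios of Slc5a6 was not tested.

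Slc27a1, the fatty acid transport protein, was the only one of the 9 that was higher at P5 than at both later ages. P5 over adult was 1.0 and 1.09 and P5 over P10 was 1.23 and 1.20, whereas P10 over adult was 0.09 and -0.05 and adult over P10 0.08 and 0.17. Levels at P5, 10.46 to 10.63, did not overlap those at P10 (9.08 to 9.74) or in adult (9.16 to 9.65). The fit gave 1.02 ± 0.10 for P5 against adult (SE, n = 2, limma adjusted p = 0.0019), a 2.02-fold difference, and 1.09 ± 0.10 for P5 against P10 (adjusted p = 0.0049). P10 against adult was -0.08 ± 0.10 (adjusted p = 0.672), and P10 lay 0.58 log2 units below the midpoint of P5 and adult (-0.58, adjusted p = 0.0229). With median centring the P5 against adult ratio was 0.56 (adjusted p = 0.0732) and the P5 against P10 ratio 0.62 (adjusted p = 0.0582), so both calls were lost. The erythroid, immature neuron and choroid plexus lists were higher at P5 in the same samples, with summed levels of 1958840 to 2201840, 26668.2 to 30618.1 and 166341 to 240228, beside 130245 to 144694, 7815.79 to 8119.28 and 39839.5 to 73387.4 in adult. The summed level of the microglia list was 69739.7 to 86826.2 at P5 and 28839.2 to 33823.9 in adult, with 2 of 7 genes higher at P5. Its median log2 ratio for P5 against adult differed between replicates, at -0.04 in replicate 1 and 1.05 in replicate 2. The part of these lists in the ratio of Slc27a1 was not tested.

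The members were next set against the endothelial list, because the list itself differed between ages. Each value was reduced by the median of the 20 endothelial identity genes, which was -1.46 and -1.60 for P5 against adult in the replicates and -0.32 and -0.29 for P10 against adult, and the limma fit was repeated over all genes. On this scale 4 of the 9 were lower in P5 against adult, where 1.53% of all genes were lower, and the other 5 were higher, where 94.8% were higher. Relative to the median, Slc2a1 lay at -1.80 ± 0.16 (SE, n = 2, limma adjusted p = 0.000101), Slc19a3 at -1.33 ± 0.17 (adjusted p = 0.000453), Slc16a4 at -1.29 ± 0.18 (adjusted p = 0.000767) and Slc52a3 at -1.10 ± 0.12 (adjusted p = 0.000224). These 4 carriers were thus lower at P5 by more than the typical endothelial gene of the list. They were not outside the range of the list, which ran from -3.86 for the VEGF receptor Flt1 to 0.01 for Ecscr. Flt1 was below all 4 carriers, and the phosphatase gene Ptprb, at -2.97, was below all but Slc2a1. These list genes were picked out after their values were seen.

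At P10 the same 4 carriers remained lower than adult on the endothelial scale, where 4.15% of all genes were lower. Slc16a4 lay at -1.47 ± 0.18 (limma adjusted p = 0.00716), Slc19a3 at -1.46 ± 0.17 (adjusted p = 0.00601), Slc2a1 at -1.26 ± 0.16 (adjusted p = 0.00711) and Slc52a3 at -0.44 ± 0.12 (adjusted p = 0.0453). Slc5a6 (1.11) and Slc16a1 (0.44, adjusted p = 0.0429) were higher, where 24.6% were higher. In P5 against P10, Slc2a1 (-0.54 ± 0.16, adjusted p = 0.0172) and Slc52a3 (-0.67 ± 0.12, adjusted p = 0.00228) were lower, where 0.433% of all genes were lower. Both lay within the range of the list. Before the subtraction they were at -1.77 and -1.89, and Ptprb, picked after its value was seen, was at -1.99. Differences between carriers were not tested. Slc16a4 (0.18 ± 0.18, adjusted p = 0.364) and Slc19a3 (0.13 ± 0.17, adjusted p = 0.493) did not differ from the list beyond their error between P5 and P10, while Slc2a3, Slc16a1, Slc19a2, Slc5a6 and Slc27a1 were higher, where 95.4% were higher. The endothelial and pericyte lists moved together with age, the latter with a summed level of 25782.2 to 30305.4 at P5 and 97403 to 103233 in adult, so this scale does not separate those cell types.

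**Figure D3:**
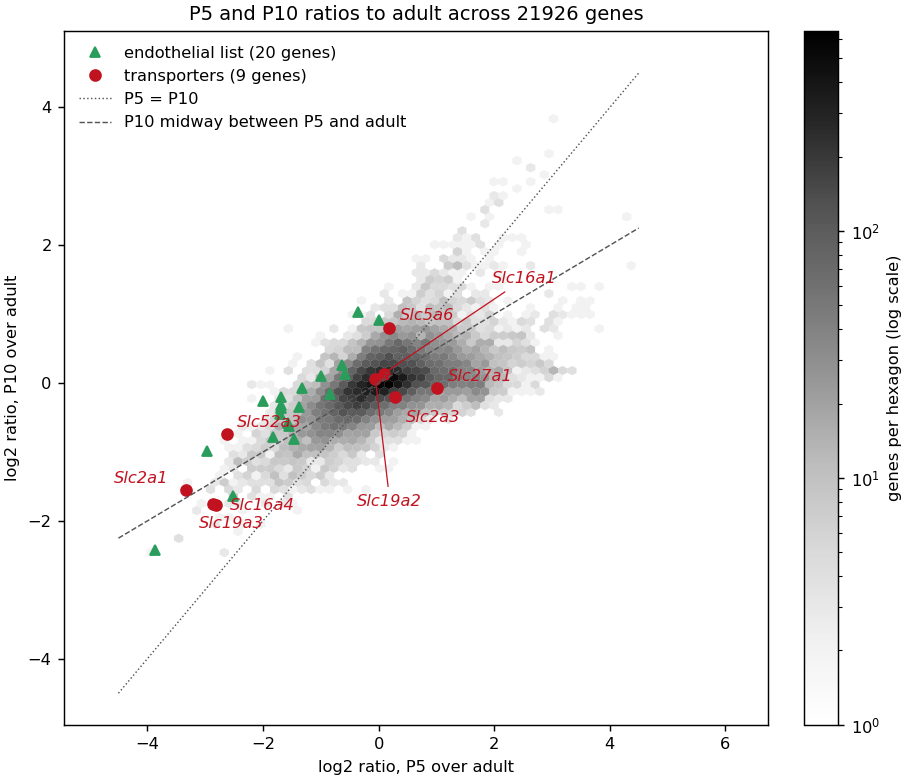
Fitted log2 ratio of P5 over adult (x axis) against P10 over adult (y axis) for 21926 genes, shaded by genes per hexagon on a log scale, with the 9 transporters as red circles and the 20 endothelial identity genes as green triangles. Both axes share the adult samples, so the slope of the cloud is no result. At the offset of 50 shown, Slc16a4 and Slc19a3, the latter at its brighter probe, nearly coincide at -2.81 and -2.86 on the x axis. Under an offset of 1 their P5 over adult ratios were -3.05 and -3.52. Slc52a3 lies above the dashed midpoint line, and Slc5a6 stands at 0.81 on the y axis.

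At the reported offset of 50, Slc16a4 and the brighter probe of Slc19a3 had nearly the same profile over the arrays. Likeness was measured as the root mean square difference of the log2 ratios over the 8 arrays, from the probe that represents each gene. It was 0.10 log2 units for this pair, each being the nearest gene of the other among all named genes. The other Slc19a3 probe was not compared in this way. Its ratio was -2.40 for P5 against adult and -0.66 for P5 against P10, beside -2.81 and -1.05 for Slc16a4. The next nearest to Slc16a4 were B2m (0.18) and Ppbp (0.21), and to Slc19a3 Acvrl1 (0.20), a receptor of endothelial cells, and Maob (0.21). Slc52a3 was nearest to Hrct1 (0.15), Adgrl4 (0.15), an adhesion receptor of endothelium, and Podxl (0.16). The nearest genes to Slc2a1 were farther away, with Oasl2 at 0.26, Gbp3 at 0.28 and Egr1 at 0.29. Slc5a6 was nearest to a (0.13), Ahr (0.14) and Cdk2 (0.14), and Slc27a1 to Abcg4 (0.08), Cdk5r1 (0.09) and Lingo4 (0.11). The nearest genes of the 3 members that were not called in any comparison of the reported fit per total RNA were Shisal1, Reep6 and Dnajb6 for Slc2a3, Bpifb6, Otog and Pde4d for Slc16a1, and Hemk1, Med4 and Gm6578 for Slc19a2, at 0.06 to 0.11. Small ratios lie close to one another for many genes, so these last distances single out little.

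Other carriers of the same families held lower and higher genes, to be read beside 23% of all genes lower and 30.1% higher in P5 against adult. Of 13 further glucose and hexose transporter genes, 8 passed the filter on dim probes. In P5 against adult 2 were lower and 3 higher (median 0.29), with Slc2a10 at -0.78 and the myo-inositol carrier Slc2a13 at -0.50 as the lowest called, and Slc2a6 at 1.22 and the brain sugar carrier Slc45a1 at 0.66 as the highest. Slc2a13 was also lower than adult at P10 (-0.82, limma adjusted p = 0.0224). Of 16 monocarboxylate transporter and chaperone genes, 13 were tested, 4 lower and 4 higher (median 0.59). The lowest was Bsg, which encodes the chaperone basigin, at -2.45 ± 0.15 (SE, n = 2, limma adjusted p = 0.000844), with -2.54 and -2.35 in the replicates. Bsg was also lower at P10, at -1.09 ± 0.15 (adjusted p = 0.0132), and lower at P5 than at P10, at -1.35 ± 0.15 (adjusted p = 0.00662). In P5 against adult Slc16a4 was at -2.81 and Slc16a1, the carrier that Bsg is known to escort, at 0.09. In P10 against adult they were at -1.77 and 0.14. The ratios of Bsg thus lay nearer to those of Slc16a4, with a wider gap at P10. The Slc16a1 probe is dim and the offset draws its ratios towards 0, and these differences between genes were not tested. Slc16a9 was lower at P5 (-1.31) and at P10 (-1.0, limma adjusted p = 0.018), and Slc16a6 (1.13) and Slc16a8 (1.04), the lactate carrier known from retinal pigment epithelium, were higher.

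Enzymes that use the carried substrates also held lower and higher genes, where 23% of all genes were lower and 30.1% higher in P5 against adult. Of 22 glycolysis and lactate dehydrogenase genes 21 were tested, and in P5 against adult 9 were lower and 4 higher (median -0.17). The lowest called were the aldolase Aldoc (-0.98) and the phosphofructokinase Pfkl (-0.74), and the highest were the phosphofructokinase Pfkp (1.87) and Pfkfb2 (1.09). All 8 ketone body genes were tested, 1 lower and 3 higher (median 0.27), with the thiolase Acat1 at 1.15 and the acetoacetyl-CoA synthetase Aacs at 1.14. Of 19 enzymes that use or activate thiamine, riboflavin, biotin or pantothenate, 6 were lower and 2 higher (median -0.19). Acacb (-1.49) and Acaca (0.68), both biotin-dependent acetyl-CoA carboxylases, moved in opposite directions, and the pantothenate kinase Pank1 was lower (-0.66).

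Of 25 further vitamin and cofactor transporter genes, 21 were tested, 7 lower and 4 higher in P5 against adult (median -0.19). The lowest were the mitochondrial folate carrier Slc25a32 (-1.23) and Flvcr2 (-1.15), and the highest were Slc44a5 (1.62) and the folate receptor Folr1 (1.12), which also belongs to the choroid plexus list. In P5 against P10, 8 of these 21 were lower and 2 higher, where 18.2% of all genes were lower and 23% higher. Of 16 fatty acid uptake genes, all tested, 5 were lower and 7 higher (median 0.41). The acyl-CoA synthetases Acsl3 (-1.17) and Acsl6 (-0.90) were the lowest, and the fatty acid binding proteins Fabp7 (4.37), known from radial glia, and Fabp5 (2.42) the highest. In P10 against adult, where 9.1% of all genes were lower and 8.42% higher (23% and 30.1% in P5 against adult), fewer genes of each list were called as well: 2 of 8 glucose transporters, 5 of 13 monocarboxylate genes, 3 of 21 glycolysis genes, 2 of 8 ketone body genes, 3 of 21 vitamin transporters, 1 of 19 vitamin-using enzymes and 4 of 16 fatty acid genes. Of the genes tested in these lists, Bsg had the lowest P5 to adult ratio.

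**Figure D4:**
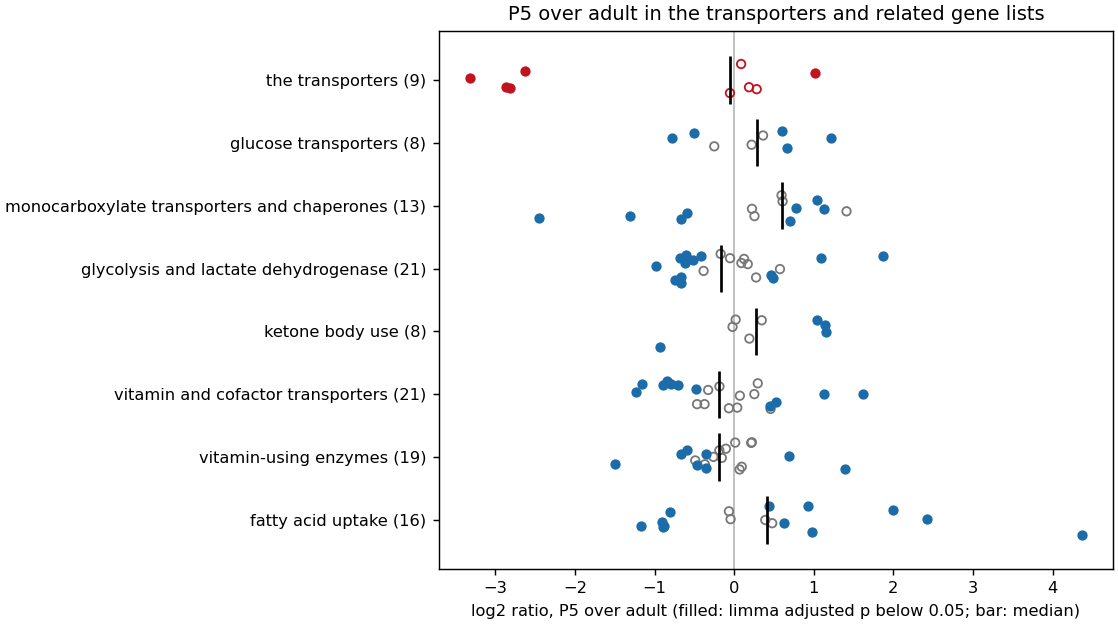
Fitted log2 ratio of P5 over adult (x axis) for the 9 transporters and 7 lists of related genes (y axis, number tested in brackets). Each point is a gene, filled where the limma adjusted p was below 0.05, and bars are medians. Slc2a1, Slc16a4, Slc19a3 and Slc52a3 lie between -3.32 and -2.63, and of the genes in the lists Bsg comes nearest to them at -2.45.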

How the data were processed

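Forebrain microvessel RNA (100 ng per labelling, per the labels' protocols) of 3 ages was measured on 8 Agilent 2-colour arrays. Age, replicate, dye and ratio direction came from the labels. The deposited files hold the output of Agilent Feature Extraction, version 10.5.1.1 per the file headers, 12.6 per the submitters' processing notes. Per the file headers, the spot signals and their local backgrounds are intensity values, not log-transformed. The authors' deposited log ratio, used as an alternative, is the log10 of processed Cy5 over Cy3 signal.

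Median signals were corrected with normexp (offset 50) and normalized within arrays by loess (span 0.3) in R 4.3.3 with limma 3.58.1. A recorded background was held faulty where it exceeded the signal by more than 100. This held for 4 spots on the exchanged array of replicate 1 and 7 on the P5/P10 array of replicate 2. These spots entered the background fit with the array's median background, had no weight in the loess and were then left out. Spots flagged as non-uniform or as population outliers were left out too. The alternative named normexp fitted on all spots took every background as recorded and kept the faulty spots. Probes were kept where at least 1 age had every channel well above background (27170 of 39429, of which 81 lacked usable values), and the brightest represented its gene. This gave 21926 genes, 15577 with a symbol from the RefSeq table (GRCm38.p6, for names and promoters). The probe design names another build, so no probe coordinates are given.

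On each slide the 4 ratios were reduced by least squares (P5-adult, P10-adult, dye) to 1 value per age and replicate. limma fitted age and replicate (2 residual and 2.91 prior degrees of freedom), with Benjamini-Hochberg adjustment within each comparison and calls at 0.05. Each slide holds 1 replicate of every age, so the replicate is the block, and a replicate's own value is also that within its slide. Correlations between replicates across genes were 0.901 for P5 against adult and 0.813 for P10 against adult. The script was tested on simulated arrays.

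The members, the gene lists and the alternatives were chosen with earlier results of these data known. Named genes are the members, the 2 lowest and 2 highest called genes of each list by P5 against adult ratio, and the 3 genes nearest to each member over the arrays; a few genes that this rule names are not reported here. Single-channel levels combine each array's ratio with its mean intensity after loess and Aquantile, and serve to compare ages within a probe. They carry no dye term, and P5 was in Cy5 alone, so for P5 they do not separate age from dye. Depth on arrays is set by signal over background and by 2 replicates per age.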

Additional observations from a re-analysis of the deposited data

How the results depend on the processing

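Of 240 alternative values of the 16 called member ratios, over 13 alternatives and the leaving out of each replicate, 208 had a test, of which 190 kept direction and call, 15 kept direction but missed the threshold and 3 turned direction. The other 32 left out a replicate, had no test and kept direction. The 15 arose with the normexp fit on all spots or with median centring; why they did was not tested.

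With normexp fitted on all spots, the shares of genes called lower and higher were 11.9% and 12.6% in P5 against adult, 0.702% and 0.47% in P10 against adult, and 0 and 0 in P5 against P10. Members called were then 0 lower and 0 higher in both latter comparisons (limma; 4 lower and 1 higher, then 4 lower and 2 higher, at an unadjusted p under 0.05, beside 11% and 9.82%, then 14.5% and 17.7%, of genes), and the P10 against adult ratio of Slc27a1 was 0.025. With median centring 0 members were called higher in any comparison (limma; 1 in each at an unadjusted p under 0.05, beside 27.1% of genes in P5 against adult, 9.42% in P10 against adult and 22.4% in P5 against P10), 2.8% of genes were lower and 3.04% higher in P10 against adult, and uncalled ratios turned for P5 against adult in Slc2a3 (-0.071) and Slc5a6 (-0.48) and for P5 against P10 in Slc16a1 (0.054). Without a filter on dim probes the share called higher was 19.7%, 5.56% and 14.6% in P5 against adult, P10 against adult and P5 against P10. With probes above background at all 3 ages, with the mean over probes, with the 8 ratios as separate arrays, or with only the arrays that hold both ages, 2 members were called higher in P5 against P10, Slc2a3 being added.

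The replicate block is part of the reported fit, since ratios exist within arrays. With no replicate block, from single-channel values, 4 members were lower and 1 higher in P5 against adult (17.9% and 20.6% of genes), 4 and 1 in P10 against adult (4.57% and 3.86%), and 5 and 1 in P5 against P10 (11.1% and 13.4%), and P5 against P10 of Slc16a1 was 0.087. With the 8 ratios as separate arrays, 23.2% were lower and 22.7% higher in P10 against adult. Without the 2 arrays with faulty backgrounds the shares were 4.75% and 3.91% in P10 against adult and 10.6% and 15.2% in P5 against P10, and P5 against adult of Slc16a1 was -0.16. With only the arrays that hold both ages, 13% were higher in P10 against adult, 8.06% lower and 12.4% higher in P5 against P10, and P5 against P10 of Slc16a1 was 0.18.

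On the endothelial scale, built to move every ratio by the list median, 1.53% of genes were lower and 94.8% higher in P5 against adult with 5 members higher, 4.15% and 24.6% in P10 against adult with 2 higher, and 0.433% and 95.4% in P5 against P10 with 2 lower and 5 higher. Ratios that turned on that scale were P10 against adult of Slc2a3 (0.10) and Slc27a1 (0.22), P5 against adult of Slc19a2 (1.47), and P5 against P10 of Slc16a1 (1.18), Slc16a4 (0.18), Slc19a3 (0.13), Slc19a2 (1.12) and Slc5a6 (0.61). With 2 replicates per age and P5 signals of Slc19a3 and Slc52a3 within a few-fold of background, the size of their P5 differences moved with the offset, while their direction and call did not.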
